A study of Gallus gallus with 8 samples.

Results

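The regions described here are the m6A peaks that the authors' annotation placed in a 5′ UTR, the stretch of a messenger RNA between its first base and its start codon. They were chosen by that annotation alone, in the control and the LPS peak list of chicken liver, after exact repeats were dropped. The control list held 599 of them among 7813 peaks (7.67%), in 566 genes. The LPS list held 421 among 5938 peaks (7.09%), in 396 genes. Counted by gene, 11.2% of the genes with any control peak and 9.92% of those with any LPS peak carried one in the 5′ UTR.

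The mark m6A, a methyl group on the N6 position of adenosines in messenger RNA, is set by a writer complex that includes METTL14 and WTAP. It is removed by ALKBH5 and FTO and is bound by reader proteins of the YTH family. Most of it lies near stop codons and in 3′ UTRs. In mammalian cells, m6A in 5′ UTRs has been linked to translation that does not need the cap-binding factor, for example of heat shock messages under stress. Antibodies against m6A also bind the related m6Am, which sits next to the cap at the first base of many mammalian messages, so a peak at the very start of a transcript can hold either mark.

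Livers came from broilers, meat-type chickens, aged 21 days. The LPS group had received lipopolysaccharide, a cell wall component of Gram-negative bacteria, at 1 mg per kg body weight into the abdominal cavity 2 h earlier, and the control group an equal volume of PBS. Polyadenylated RNA was broken into pieces of about 100 bases and sequenced before (input) and after capture with an anti-m6A antibody (IP), in 8 libraries that formed 4 groups of 2. The labels name no strain and do not say whether a group's 2 libraries are from separate birds, so p-values measure the spread between these libraries, which may be technical. Peaks were deposited as 1 list per treatment, so no peak value has a replicate and differences between the lists are described without a test.

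Gene levels were deposited for the 4 input libraries as FPKM, a level scaled for gene length and library depth. Read totals were not used and absolute depth is unknown. The steps between the lowest values gave the other libraries 0.818 to 0.891 of the depth of control library 1. All 10 hepatocyte markers were present, and their FPKM summed to 70620 to 73620 in the control and 81200 to 81710 in the LPS libraries. The single markers went both ways, so the sum does not measure hepatocyte content. FGA, FGB, FGG, TF and SERPINC1 were higher in both LPS libraries than in both control libraries. AHSG, TTR and APOA1 were lower, and ALB and APOB overlapped. The sum of 5 macrophage markers was 966.9 and 1140 in the control and 763.7 and 705.4 in the LPS libraries. Its largest member, Ii, overlapped (519.9 and 655.2 against 556.3 and 503.7), and CSF1R, MARCO, C1QA and C1QB were lower after LPS. The sum of 4 endothelial markers was 45.55 and 38.29 against 27.23 and 22.17, with STAB2 overlapping and the others lower. That of 3 bile duct markers went the other way, 29.42 and 53.64 against 62.62 and 89.41, with EPCAM higher, KRT19 overlapping and Sox9 lower. Of the 38 marker entries found, only the B cell factor Pax5 was at 0 in both LPS libraries, and no erythrocyte marker was matched. In bulk liver, fewer cells of a type and less RNA per cell cannot be told apart, and the part of these shifts in the results below was not tested.

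The 5′ UTR peaks mostly lay near the front edge of their transcripts, a position that follows largely from the annotation that chose them. In the control list 334 peaks (55.8%) covered the annotated start of the assigned transcript, and 216 (51.3%) did so in the LPS list. Another 143 control peaks (23.9%) and 106 LPS peaks (25.2%) lay 1 to 300 bases downstream on the genome. Peaks annotated to a 3′ UTR or an exon covered a start in 1.13% and 4.97% of control cases. Among the exon peaks, those of a first exon did so in 22.6% of the control list. Of the control 5′ UTR peaks, 290 (48.4%) began exactly at the first base of the transcript, against 185 (43.9%) of the LPS peaks. At the other end, 60 control and 52 LPS peaks lay more than 1000 bases from the start and 26 and 21 more than 10000 bases. These are distances on the genome, and whether long introns or other transcripts of the gene account for them was not tested. The farthest were in CUX1, a homeodomain transcription factor, at 107266 bases in the control and 110676 in the LPS list.

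**Figure D1:**
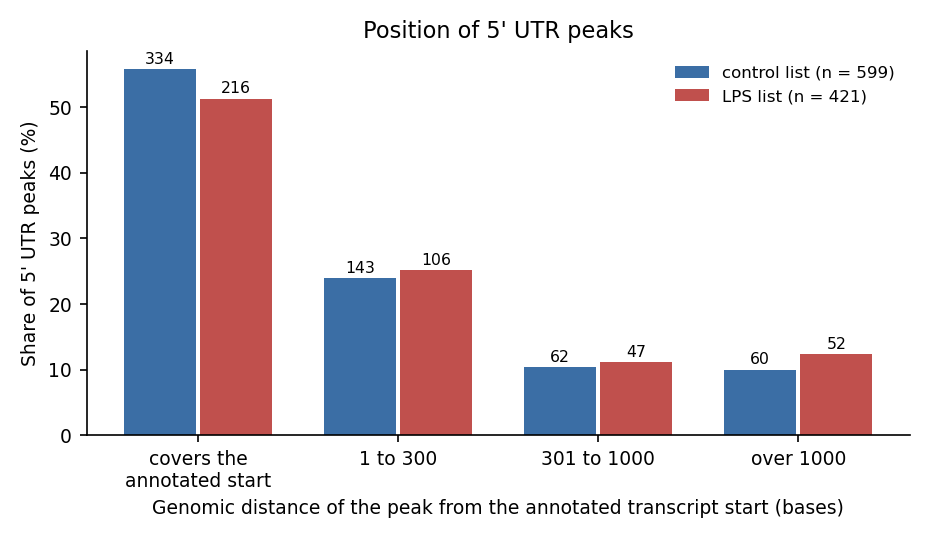
Share of the 5′ UTR peaks of each list (bars, percent, from 0) by distance from the annotated transcript start, for the control (599 peaks) and the LPS list (421 peaks). The bars over the start stand at 55.8% and 51.3%, more than those of the other distances together in either list.

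The peaks were about as long as others but more often cut by introns. Their exonic length had a median of 240 bases in the control and 211 in the LPS list, beside 270 and 240 for 3′ UTR peaks. A single block held 42.7% of the control and 47.7% of the LPS 5′ UTR peaks. Among 3′ UTR peaks that share was 77.7% and 80.6%, and among exon peaks 55.7% in both lists. At 3 or more blocks stood 153 control peaks (25.5%) and 95 LPS peaks (22.6%), up to 11 blocks in BRT-1 and 9 in TOP1, the gene of DNA topoisomerase 1. In 44 control peaks (7.35%) the span also reached upstream of the assigned transcript, by a median of 450 bases, so that the gene is uncertain. One of these was F2, the prothrombin gene, whose control and LPS peaks both began upstream. For 3′ UTR peaks the same held in 0.708% of the control list. The spans of 27 control (4.51%) and 16 LPS (3.8%) 5′ UTR peaks reached the annotated end of the assigned transcript.

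Fold enrichment, the authors' ratio of IP to input signal at a peak, was used to rank peaks within a list. The control 5′ UTR peaks had a median of 6.62 (quartiles 3.43 and 13.6) and the LPS peaks 6.56 (3.54 and 12.9). Peaks in 3′ UTRs had medians of 6.3 and 5.53 and exon peaks 4.76 and 4.4. The 5′ UTR peaks thus had the highest median of the 3 annotations in both lists. Among the exon peaks, those of a first exon came closer, with medians of 6.17 and 5.66. Of these first exon peaks 14.3% and 12.9% reached a fold enrichment of at least 20. A fold enrichment of at least 20 was reached by 96 control (16.0%) and 68 LPS (16.2%) 5′ UTR peaks, against 14.4% and 12.3% of 3′ UTR and 8.34% and 7.07% of exon peaks. The low end was populated too, with 28 control and 23 LPS 5′ UTR peaks under 2. Control peaks over the transcript start had a median of 7.44, those 1 to 300 bases away 5.33, those up to 1000 bases away 9.45 and those farther off 5.29. The corresponding LPS medians were 7.54, 4.84, 6.94 and 5.22.

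**Figure D2:**
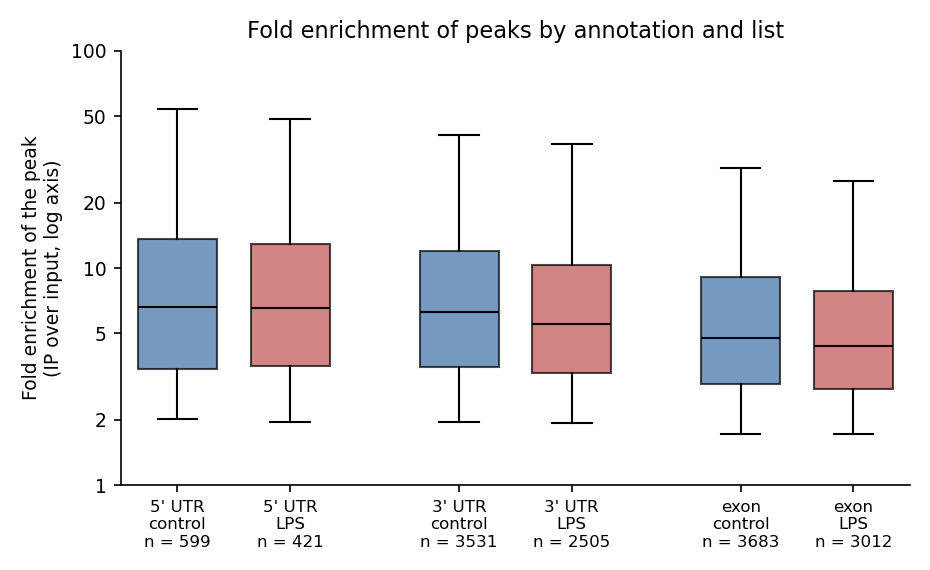
Fold enrichment of IP over input (log axis) of the peaks of each list by annotation; boxes span the quartiles, the line is the median and whiskers run from the 5th to the 95th percentile. The 5′ UTR medians, 6.62 in the control and 6.56 in the LPS list, lie above the 3′ UTR (6.3 and 5.53) and exon medians (4.76 and 4.4).

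The strongest 5′ UTR peaks were found in both lists, at nearly the same place. The highest of the control list lay over the start of STUB1, a ubiquitin ligase that works with chaperones, on chromosome 14 from 13139991 to 13140228. Its fold enrichment was 681 in the control and 219 in the LPS list, on the same bases. The highest of the LPS list lay in MAPK14, the stress kinase p38 alpha, on chromosome 26 from 134445 to 134744, at 376, and the control peak, which began 30 bases earlier, stood at 311. (The build of these coordinates is not given in the sources used here.) Tapasin, listed as TPN, which loads peptides onto MHC class I molecules, had 298 and 193 on chromosome 16 from 97656. The gene of the calcium pump SERCA2 had 240 and 127 on chromosome 15, and ZMYND10, needed to assemble the motors of cilia, 175 and 139 on chromosome 12.

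MARCKSL1 and PPP1CC were also among the 5 highest of the LPS list for genes with a symbol. MARCKSL1 is an actin-binding protein and PPP1CC a catalytic subunit of protein phosphatase 1. Their peaks had 114 and 107 in the control and 187 and 173 in the LPS list. These genes did not share an expression level. ZMYND10 was low, at 2.07 and 3.09 FPKM in the control and 1.04 and 0.857 in the LPS libraries. STUB1 stood at 51.4 and 62.4 in the control and 35.8 and 36.5 in the LPS libraries. MAPK14 had 9.99 and 11.8 in the control and 16.5 and 16.2 in the LPS libraries. In all 3 genes the control and LPS values did not overlap. With 2 libraries against 2, values can easily separate without a treatment effect. The share of all tested genes that did so is not given, so non-overlap here and below only describes the libraries. The limma calls of these 3 genes, at Benjamini-Hochberg adjusted p from 0.0230 to 0.0448, were lost when single libraries were left out. STUB1 lost its call without control replicate 2 (0.0839) or either LPS replicate (0.0691 and 0.0596), and ZMYND10 without control replicate 2 (0.0831) or LPS replicate 2 (0.0812). MAPK14 lost it without control replicate 1 (0.123) or either LPS replicate (0.191 and 0.178), and STUB1 and ZMYND10 also at equal library medians, a scale described below (0.222 and 0.065).

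Most of the LPS 5′ UTR peaks had a counterpart in the control list, and fewer of the control peaks had one in the shorter LPS list. Overlap here means at least 1 shared base of exon blocks on the same strand with a peak of any annotation. It was met by 405 of 599 control peaks (67.6%) and 368 of 421 LPS peaks (87.4%). Peaks of 3′ UTRs were overlapped in 66.5% and 91.7% and exon peaks in 61.2% and 84.3%, so 5′ UTR peaks lay within or near the range of the others. With a partner that was itself annotated to a 5′ UTR, the shares were 59.3% and 84.6%. By gene, 339 genes had a 5′ UTR peak in both lists (59.9% of the control and 85.6% of the LPS genes), 227 in the control list alone and 57 in the LPS list alone.

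The peaks without a counterpart were weaker and shorter. Control 5′ UTR peaks without an overlapping LPS peak (194) had a median fold enrichment of 4.72 and a median exonic length of 177 bases, against 8.15 and 270 bases for overlapped ones. The 53 LPS peaks without an overlapping control peak had 3.77 and 150 bases, against 7.28 and 239. Their genes were also lower in the input RNA, with a median of 13.3 FPKM against 28.4 in the control list and 21.5 against 30.2 in the LPS list. Control peaks over a transcript start were overlapped in 71.3% and those 1 to 300 bases away in 60.8%, and LPS peaks in 92.1% and 84.0%.

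Exceptions in fold enrichment were high peaks listed in 1 state, ranked here among genes with a symbol that averaged at least 1 FPKM. In the control list these were NUDT1, which clears oxidised nucleotides, with a fold enrichment of 133; SC5D, an enzyme late in cholesterol synthesis, with 123; PTK7, a receptor-like protein of Wnt signalling, with 75.1; SNX33, a sorting nexin, with 67.8; and SPATA20, with 66.9. NUDT1 stood at 104 and 141 FPKM in the control and 47.3 and 36.8 in the LPS libraries, a fall of 1.51 ± 0.214 (limma log2 fold change and SE, adjusted p = 0.00143). SPATA20 had 26.4 and 33.5 FPKM in the control and 4.31 and 3.88 in the LPS libraries, a fall of 2.59 ± 0.199 (limma adjusted p = 9.2e-05). SNX33 fell by 1.08 ± 0.176 (limma adjusted p = 0.00277), and all 3 kept their LPS libraries below both control libraries. The SNX33 peak reached 87 bases upstream of the assigned transcript, so its gene is uncertain.

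In the LPS list the peaks of highest fold enrichment without a control counterpart, by the same ranking, were 2 in MMADHC, at 41 and 40. MMADHC is a vitamin B12 trafficking protein. The 2 peaks were followed by ADAM33, a membrane metalloprotease, at 39.1, and by UTP6, a factor of ribosomal RNA processing, at 28.6. Next came SEC61G, a subunit of the channel through which proteins enter the ER, at 21.0. The ADAM33 peak reached 73 bases upstream of the assigned transcript, so its gene is uncertain. None of these 4 genes was called between treatments by limma on the deposited scale (adjusted p from 0.0673 to 0.638), and ADAM33 rose at equal medians (0.026). MMADHC had 13.3 and 9.70 FPKM in the control and 15.0 and 12.7 in the LPS libraries, values that overlapped. The peaks of these 4 genes were weakly supported despite their fold enrichment. Their deposited log10 peak p ran from −11.2 in MMADHC to −6.36 in SEC61G. The median was −49.9 over all LPS 5′ UTR peaks and −18.5 over those without overlap.

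Where both lists placed a 5′ UTR peak, the front edge moved less often than the back edge. Of 347 such pairs, 224 (64.6%) shared the 5′ edge, 122 (35.2%) the 3′ edge and 83 both. In the control list 290 of 599 5′ UTR peaks began at the first annotated base, and the part of this in the contrast was not tested. The LPS peak was the shorter one in 193 pairs, the longer in 66 and equal in 88, with median exonic lengths of 268 bases in the control and 239 in the LPS list. In the 124 pairs of single blocks, 121 of 128 shifted edges (94.5%) had moved by a multiple of 30 bases, give or take 1, so the edges lie on a grid of that step.

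Fold enrichment at paired 5′ UTR peaks was close between the lists. Over 414 pairs with a 5′ UTR peak on at least 1 side, the median log2 ratio of LPS to control was −0.25 (quartiles −0.64 and 0.19), with 142 pairs higher in LPS, 271 lower and 1 equal. The median over all 4950 paired peaks of any annotation was also −0.25. LPS was at least 2-fold higher in 15 of the 414 pairs (3.62%) beside 2.14% of all pairs, and at least 2-fold lower in 46 (11.1%) beside 12.2%. The 347 pairs annotated to a 5′ UTR on both sides had a median of −0.23, 3′ UTR pairs −0.31 and exon pairs −0.15. Across those 347 pairs the fold enrichments had a Spearman correlation of 0.859, a description over peaks of 2 lists, each from 1 set of libraries.

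**Figure D3:**
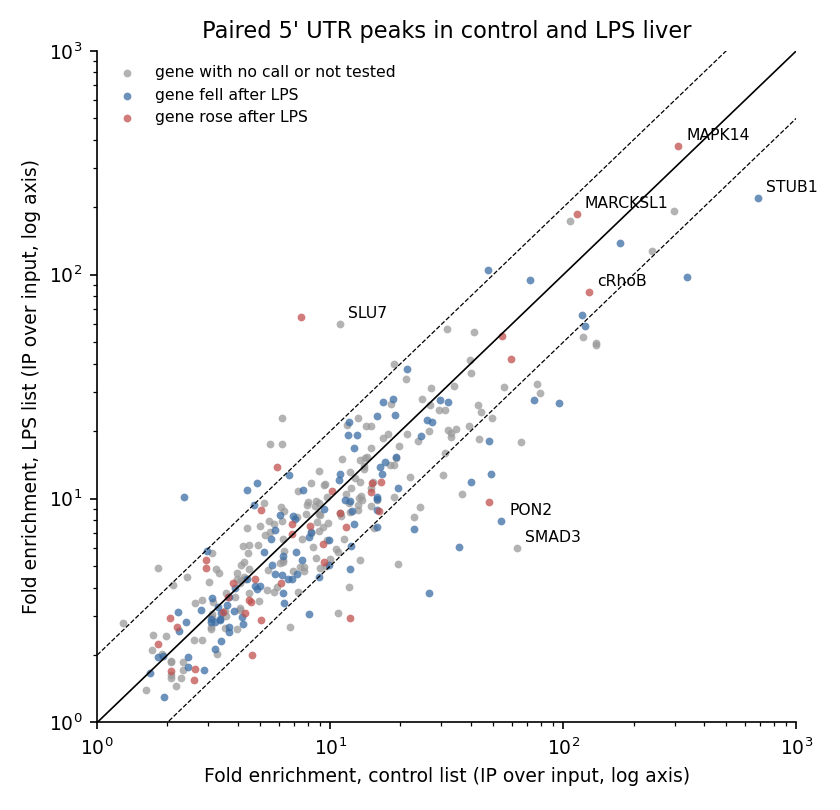
Fold enrichment of 347 peaks annotated to a 5′ UTR in both lists, control on the x axis and LPS on the y axis (both log axes); the solid line marks equal values and the dashed lines a 2-fold difference. Of the pairs, 297 (85.6%) lie within 2-fold, 13 above and 37 below.

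Among genes with a symbol, the largest differences up were in RAB44, a GTPase of the Rab family, with 3.50 in the control, where the peak was annotated to an exon, and 57.2 in the LPS list. SLU7, a splicing factor, had 11 and 60; AIF1L, an actin-binding protein, 2.35 and 10.2; RAD54L2, a helicase, 5.50 and 17.6; and NOL7, a nucleolar protein, 1.96, also annotated to an exon, and 6.10. The largest differences down were in SMAD3, the signal carrier of TGF-beta receptors, with 63.2 and 5.99. HARS, the histidyl-tRNA synthetase, had 26.6 and 3.77; PON2, a lactonase, 54.0 and 7.93; ZFP91, a zinc finger protein, 35.7 and 6.08; and BFAR, an apoptosis regulator, 47.8 and 9.63. The peaks of HARS and PON2 reached 68 and 95 bases upstream of the assigned transcript in the control list. SMAD3 RNA stood at 4.77 and 6.74 FPKM in the control and 4.92 and 4.38 in the LPS libraries, which overlapped, and SLU7 RNA at 9.16 and 4.94 against 7.42 and 7.59. RAB44 RNA was low, at 1.76 and 1.59 FPKM in the control and 0.77 and 1.01 in the LPS libraries. Over all 5′ UTR peaks, fold enrichment had a Spearman correlation with the gene's FPKM of −0.216 in the control and −0.302 in the LPS list. The part of a low input level in these large ratios was not tested.

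The input RNA was compared with limma on log2(FPKM + 1), 2 libraries against 2, for the 9484 genes that averaged at least 1 FPKM. Of these, 10.7% rose and 31.4% fell after LPS at a Benjamini-Hochberg adjusted p under 0.05. Their median log2 fold change was −0.34, so calls depend on the scale. With the libraries brought to equal medians, 14.1% rose and 16.8% fell, around a median of −0.07. Among the 603 tested genes with a 5′ UTR peak in either list, 78 rose (12.9%) and 239 fell (39.6%), with a median of −0.41. At equal medians the counts were 94 (15.6%) and 131 (21.7%), with a median of −0.12. The 330 tested genes with a 5′ UTR peak in both lists had a median of −0.30, with 41 up and 108 down.

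Genes with a peak without overlap moved with the list that held it, and this was shared by other peak types. A gene with such a peak in each list enters both groups, as ITPKB did. Of 179 tested genes with a control 5′ UTR peak that no LPS peak overlapped, 7 rose (3.91%) and 104 fell (58.1%), with a median log2 fold change of −0.69. Of 50 tested genes with an LPS 5′ UTR peak that no control peak overlapped, 24 rose (48.0%) and 3 fell (6.0%), with a median of 0.49. At equal medians these counts were 10 up and 64 down for the control and 27 up and 2 down for the LPS list. In 3′ UTRs, 2.53% of the genes with a control peak without overlap rose and 52.8% fell, and 40.9% and 10.2% of those with such an LPS peak. In exons the shares were 2.65% and 46.5%, and 42.1% and 6.27%. Counted by gene, 217 tested genes had a 5′ UTR peak in the control list only, of which 8 rose (3.69%) and 126 fell (58.1%). Of the 56 tested genes with one in the LPS list only, 29 rose (51.8%) and 5 fell (8.93%).

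**Figure D4:**
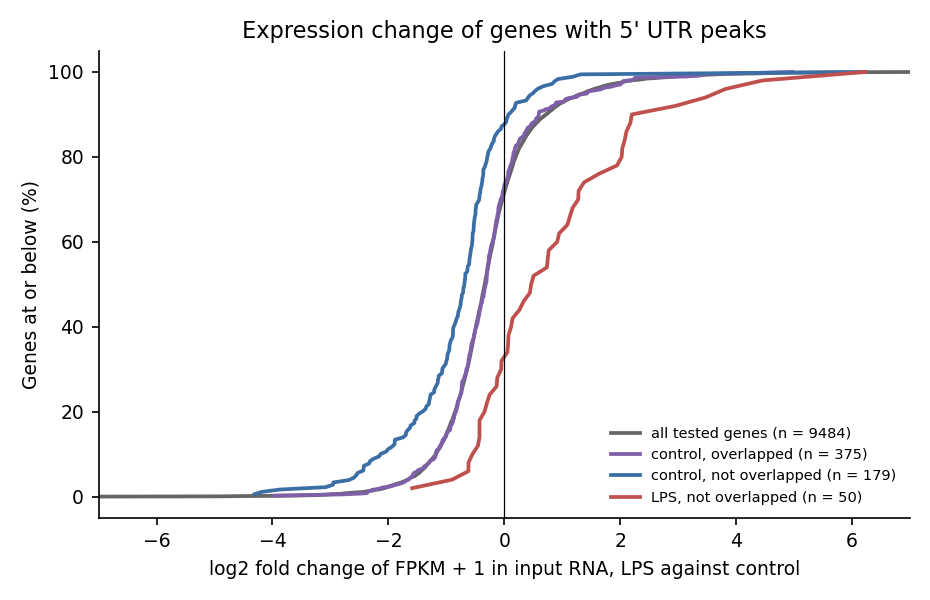
Share of genes (y axis, percent) at or below each log2 fold change of input FPKM + 1, LPS against control (x axis), for all 9484 tested genes and for genes whose 5′ UTR peak was overlapped or not overlapped in the other list. The curve of genes with a control peak without overlap lies left of that of all genes (medians −0.69 and −0.34) and that of genes with an LPS peak without overlap lies right of it (0.49).

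Whether a 5′ UTR peak was listed followed the gene's level, and the same input libraries gave the FPKM and entered the peak lists. Among the tested genes split by mean FPKM into 5 groups of near equal size, 1.53% of the lowest and 12.1% of the highest group carried a control 5′ UTR peak, and 0.527% and 9.8% an LPS peak. The same was seen for 3′ UTR peaks, at 12.2% and 43.5% in the control and 5.17% and 39.4% in the LPS list. Genes with a 5′ UTR peak had a median of 23.6 FPKM, beside 8.46 for all tested genes and 13.4 for those with a 3′ UTR but no 5′ UTR peak. The part of gene level in the difference between the lists was not tested. Where both lists had the peak, the median log2 ratio of its fold enrichment was −0.32 in 40 pairs of genes that rose, −0.26 in 111 pairs of genes that fell and −0.17 in 185 pairs without a call. Across 336 pairs its Spearman correlation with the gene's log2 fold change was 0.091, a description over genes of the same libraries.

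The largest rises among genes with a 5′ UTR peak included regulators of inflammatory signalling. ITPKB, a kinase of inositol trisphosphate, had 5.87 and 7.27 FPKM in the control and 537 and 596 in the LPS libraries, a rise of 6.23 ± 0.179 (limma log2 fold change and SE, adjusted p = 3e-06). Its 5′ UTR peaks had nearly equal fold enrichment, 5.6 and 5.54, but different places: the control peak lay on chromosome 3 from 11880240 to 11880388 and the LPS peak from 11880775 to 11880983, with no shared base. Of these, the control peak was 30 bases and the LPS peak 565 bases from the annotated start.

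MARCKSL1 had 10.2 and 14.7 FPKM in the control and 368 and 471 in the LPS libraries, a rise of 4.97 ± 0.223 (limma adjusted p = 1.2e-05). ZC3H12A, the ribonuclease Regnase-1 that cuts inflammatory messages, had 5.04 and 4.93 in the control and 90.1 and 128 in the LPS libraries, a rise of 4.18 ± 0.211 (limma adjusted p = 1.8e-05). Its 5′ UTR peak had fold enrichments of 2.92 and 4.90. PIM3, a serine kinase, rose by 3.40 ± 0.233, with peaks of 3.65 and 3.62. In each of these 3 genes both LPS libraries lay above both control libraries, which was a condition for being named among the largest rises.

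In 4 of these 8 largest rises the 5′ UTR peak was in the LPS list alone, beside 57 of all 623 genes with a 5′ UTR peak in either list. TNFAIP3, the A20 protein that shuts off NF-kB signalling, had 1.70 and 2.38 FPKM in the control and 33.1 and 32.1 in the LPS libraries, a rise of 3.47 ± 0.199 (limma adjusted p = 2.7e-05). Its LPS peak lay over the transcript start on chromosome 3 from 53873194 to 53873283, with a fold enrichment of 3.40. The others were WDR86 (rise of 4.45, fold enrichment 5.80), the magnesium transporter NIPAL4 (3.82 and 5.43) and BORCS6 (4.46 and 4.84), a subunit of a complex that positions lysosomes. The LPS peak of BORCS6 overlapped a control peak that was annotated to an exon, at 4.48, so that its place was occupied in both states. In the control libraries WDR86 was at 1.06 and 2.39 FPKM and NIPAL4 at 3.95 and 3.64. The part of low control levels in the absent control peaks of TNFAIP3, WDR86 and NIPAL4 was not tested.

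The largest falls, again among genes with a symbol, were led by genes of lipid metabolism. THRSP, a regulator of fat synthesis, had 5915 and 4944 FPKM in the control and 389 and 190 in the LPS libraries, a fall of 4.31 ± 0.316 (limma adjusted p = 7.4e-05). Its 5′ UTR peak, with a fold enrichment of 2.47, was in the control list alone and lay over the start on chromosome 1 from 192074426 to 192074632. SCD, which puts the double bond into fatty acids, had 1261 and 1258 FPKM in the control and 92.6 and 50.4 in the LPS libraries, a fall of 4.18 ± 0.272 (limma adjusted p = 4.1e-05), and a control peak of 1.82. Both THRSP and SCD also had a control 3′ UTR peak, at 3.08 and 1.79, and neither gene had any peak in the LPS list.

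ANGPTL4, a secreted inhibitor of lipoprotein lipase, had 542 and 385 FPKM in the control and 26.2 and 30.9 in the LPS libraries, a fall of 3.96 ± 0.211 (limma adjusted p = 2.2e-05). It kept its peak over the start, at 9.83 and 6.52. USP2, a deubiquitinase, fell by 3.87, RGS8, a regulator of G protein signalling, by 2.95, and NR0B2, the orphan receptor SHP of bile acid feedback, by 2.68. In these 3 genes the 5′ UTR peak was in the control list alone, at 2.63, 3.86 and 3.94. Their control 3′ UTR peaks had no overlapping LPS peak either, at 63.2 in USP2, 12.8 and 2.44 in RGS8, and 7.33 and 4.85 in NR0B2. Absence from the LPS list was thus not particular to the 5′ UTR peaks of these genes. RGS8 did have an LPS 3′ UTR peak at another place, at 7.33. In the LPS libraries USP2 was at 0.996 and 1.63 FPKM, RGS8 at 1.39 and 1.04 and NR0B2 at 6.52 and 3.90. The part of these low levels in the absent peaks was not tested. EPN3, an endocytic adaptor, fell by 2.77, and its control peak of 6.94 overlapped an LPS peak of 5.02 that was annotated to an exon.

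Across lists of genes by function, 5′ UTR peaks are read against their share among all genes of the table, 621 of 13427 (4.63%). Among tested genes the share was 603 of 9484 (6.36%). Neither share takes account of gene level. In the highest of the 5 level groups above, 12.1% of genes carried a control and 9.8% an LPS 5′ UTR peak. The part of gene level in the shares of the lists was not tested. Lipid and cholesterol synthesis had 11 of 44 genes with such a peak (25%), all 11 in the control list and 2 of them, HSD17B7 and FADS2, in the LPS list. All 11 fell on both scales, with limma log2 fold changes from −1.04 to −4.31, in a list where 37 of 43 tested genes fell, 4 rose and the median was −2.25 (36 and 4 at equal medians). Enzymes of cholesterol synthesis among them were HSD17B7 (fold enrichment 15.8 and 7.43), SQLE (9.12), NSDHL (4.92), MSMO1 (1.76) and SC5D, and SCAP (11.8) is the sterol sensor that escorts SREBP. FASN (3.07), SCD, FADS1 (29.2), FADS2 (32.1 and 26.9) and THRSP serve fatty acid synthesis. FADS2 had 855 and 954 FPKM in the control and 398 and 320 in the LPS libraries. The fall of FADS1 was not called without control replicate 2 (limma adjusted p = 0.0641).

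**Figure D5:**
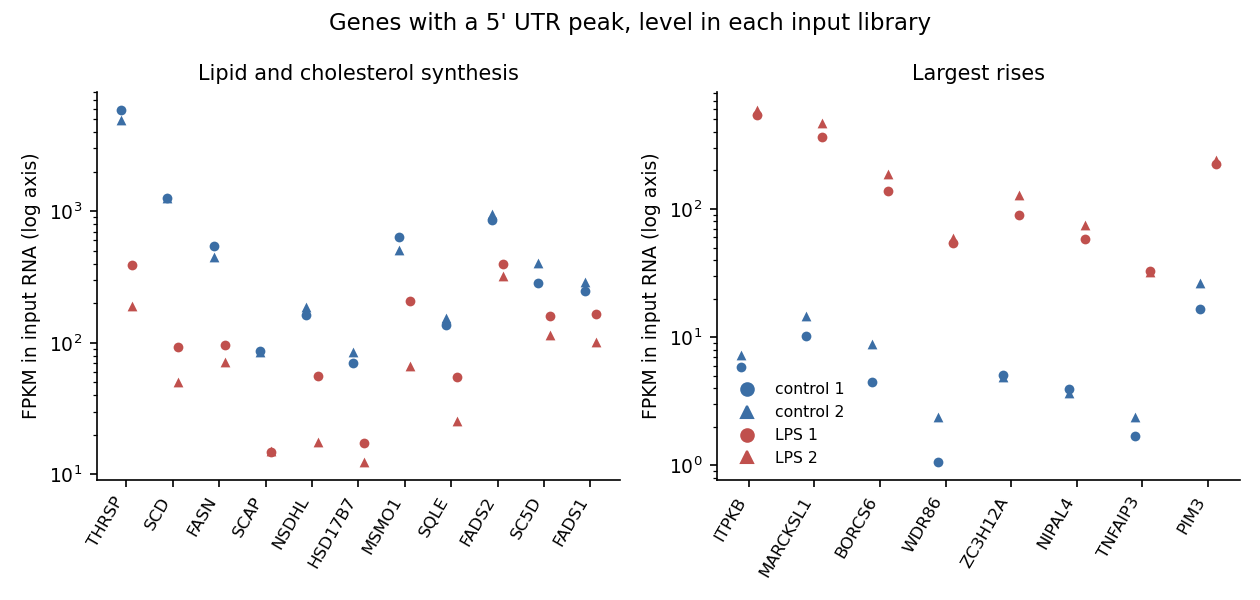
FPKM in each of the 4 input libraries (log axis) for the 11 genes of lipid and cholesterol synthesis with a 5′ UTR peak and the 8 genes with the largest rises. Both LPS points lie below both control points in the lipid genes, for example 389 and 190 against 5915 and 4944 in THRSP, and above them in the risers, for example 537 and 596 against 5.87 and 7.27 in ITPKB.

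Acute phase and plasma proteins had 7 of 29 genes with a 5′ UTR peak (24.1%). FGA and FGB, chains of fibrinogen, rose by 1.04 ± 0.177 and 1.28 ± 0.187 (limma adjusted p = 0.00326 and 0.00171). FGA had 3342 and 3529 FPKM in the control and 6922 and 7173 in the LPS libraries. Its control peak over the start, at a fold enrichment of 6.17, held 2398 bases in 6 blocks. The LPS peak over the start, at 4.18, held 990 bases in 5 blocks. An LPS exon peak of 2.69 and an LPS 3′ UTR peak of 4.59 overlapped the same control peak, so 6.17 and 4.18 belong to unlike stretches. The FGB peaks had 4.46 and 3.51. Neither gene's libraries overlapped between treatments. The other 5 were F2, APOA1 and SAAL1, with peaks in both lists, and SERPINC1 and APOB in the control list, and none of them was called on the deposited scale, while F2 and SERPINC1 rose at equal medians. In the whole list of 29 tested genes, 11 rose and 4 fell, or 15 and 2 at equal medians. The gene of the F2 peaks is uncertain, as they began upstream of it. A SAAL1 peak had a deposited log10 p of −816 in the control and −50200 in the LPS list. SAAL1 RNA was at 17.6 and 23.0 FPKM in the control and 19.5 and 21.3 in the LPS libraries. Whether that signal belongs to SAAL1 was not tested.

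Translation initiation factors had 9 of 40 genes with a 5′ UTR peak (22.5%). EIF4G2, a scaffold protein that starts translation without binding the cap factor, had nearly equal fold enrichments of 26.7 and 26.3 over its start on chromosome 5. Its RNA was at 192 and 163 FPKM in the control and 176 and 181 in the LPS libraries, values that overlapped. EIF3J, a subunit of the factor that prepares the small ribosomal subunit, had 19.0 and 23.5, and EIF4E, the cap-binding factor itself, 7.84 and 8.57. EIF4G1, EIF4A3, EIF2B4 and EIF1AY also had peaks in both lists. Those of EIF4G3 and of the entry EIF2B, matched here as EIF2S2, were in the control list. Of the 40 tested genes of the list 3 rose and 8 fell, a balance that turned to 9 and 1 at equal medians. The falls of EIF3J, EIF4G3 and EIF1AY were not called at equal medians (limma adjusted p = 0.113, 0.0928 and 0.344). That of EIF4G3 was also lost without LPS replicate 2 (0.114), and that of EIF1AY without either LPS replicate (0.135 and 0.0768) or control replicate 1 (0.118).

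The integrated stress response list had 2 of 24 (8.33%). ATF4, its central transcription factor, whose leader carries upstream reading frames in mammals, had a peak over the start of 39.2 in the control and 21.0 in the LPS list, on chromosome 1 up to 50459626. Its RNA was at 667 and 685 FPKM in the control and 497 and 571 in the LPS libraries, without overlap but without a call (limma adjusted p = 0.138). OAZ2, an antizyme of polyamine control, had a control peak of 5.84 and fell by 0.96 ± 0.206 (limma adjusted p = 0.00841). In the list 6 of 24 rose and 5 fell, or 8 and 3 at equal medians.

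Heat shock proteins and co-chaperones had 4 of 30 (13.3%). HSPA5, the chaperone of the ER, had 1506 and 1211 FPKM in the control and 344 and 201 in the LPS libraries, a fall of 2.36 ± 0.266 (limma adjusted p = 0.000535), with peaks of 5.64 and 5.04. HSP90AA1, a cytosolic chaperone, had 1068 and 830 in the control and 190 and 77.1 in the LPS libraries, a fall of 2.95 ± 0.376 (limma adjusted p = 0.000918). Its 5′ UTR peak, at 2.01, was in the control list alone. DNAJA1 fell by 1.56 ± 0.203 (limma adjusted p = 0.00102), with low peaks of 1.91 and 1.98. AHSA1, an activator of HSP90, had peaks of 2.78 and 3.17, and its fall was not called at equal medians or without LPS replicate 2 (limma adjusted p = 0.0746 and 0.0726). In the list, 17 of 29 tested genes fell and 3 rose, or 12 and 3 at equal medians.

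NF-kB and Toll-like receptor signalling had 2 of 38 (5.26%), near the share of all genes, and both rose in a list where 17 of 35 tested genes rose and 4 fell (19 and 3 at equal medians). These were TNFAIP3 and TNIP1, its partner in restraining NF-kB. TNIP1 had 75.2 and 85.4 FPKM in the control and 415 and 343 in the LPS libraries, a rise of 2.22 ± 0.179 (limma adjusted p = 0.000115), and peaks of 2.94 and 5.31. Cytokines, chemokines and JAK-STAT feedback had 1 of 40 (2.5%), SOCS4, with a control peak of 3.48 and no call (limma adjusted p = 0.316). That list had 24 of 36 tested genes up and 3 down (25 and 2 at equal medians) and a median log2 fold change of 2.17.

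Among liver transcription factors and nuclear receptors 5 of 33 (15.2%) carried the peak. NR2F2 had 31.1 and 16.0 in the control and LPS lists without a call. NR5A2, LXR and PPARD had a 5′ UTR peak in the LPS list alone, at 2.93, 2.98 and 4.69, and NR0B2 in the control list alone. NR5A2 had 22.7 and 16.2 FPKM in the control and 34.4 and 31.6 in the LPS libraries, a difference whose call was lost without control replicate 2 (limma adjusted p = 0.0816) and without LPS replicate 1 (0.0554). In the list 4 of 30 rose and 12 fell, or 4 and 11 at equal medians.

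Oxidative stress and heme genes had 5 of 33 (15.2%). HMOX1, which breaks down heme, had 161 and 149 FPKM in the control and 448 and 411 in the LPS libraries, a rise of 1.47 ± 0.164 (limma adjusted p = 0.000518), with peaks of 3.46 and 3.10 on the same bases. FTH1, the ferritin heavy chain, had peaks of 5.72 and 3.82 on the same 150 bases over its start, and 6559 and 8233 FPKM against 9082 and 9662. Its libraries did not overlap, and it was called at equal medians but not on the deposited scale (limma adjusted p = 0.193). In the list 5 of 32 rose and 6 fell, which turned to 6 and 4 at equal medians.

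Regulators of ubiquitin and messenger RNA decay had 5 of 34 (14.7%), of which ZC3H12A rose, and TOB and TOB2, adaptors of the deadenylase, fell by 2.37 ± 0.191 and 2.01 ± 0.207 (limma adjusted p = 0.000113 and 0.000361). TOB had 47.2 and 45.0 FPKM in the control and 7.10 and 9.19 in the LPS libraries, and a control peak of 5.05 that overlapped an LPS peak annotated to an exon. UPF2, of nonsense-mediated decay, had a control peak of 26.9 that overlapped an LPS peak of 33.3 annotated to an exon. In the list 2 of 30 rose and 7 fell, or 3 and 4 at equal medians.

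Immediate early and stress transcription regulators had 4 of 34 (11.8%). The RhoB gene, listed as cRhoB, had a peak of 1582 bases, the longest 5′ UTR peak of the LPS list, on the same coordinates in both lists, with fold enrichments of 129 and 83.5. Its RNA was at 24.0 and 23.7 FPKM in the control and 66.7 and 38.5 in the LPS libraries, without overlap, and its call was lost without LPS replicate 1 (limma adjusted p = 0.0587) and without either control replicate (0.0567 and 0.0599). MKP3, a phosphatase of ERK, had a control peak of 17.4. In the list 10 of 32 rose and 9 fell, or 13 and 6 at equal medians.

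Glucose, glycogen and insulin genes had 4 of 42 (9.52%), with a control peak of 31.1 in GHR, the growth hormone receptor, and of 6.62 in PEPCK, the gluconeogenic enzyme. PEPCK had 57.3 and 39.8 FPKM in the control and 155 and 30.9 in the LPS libraries, so that the LPS pair spanned the control values. Of 35 tested genes 6 rose and 13 fell, which turned to 7 and 6 at equal medians. No gene of the circadian clock list, 0 of 15, had a 5′ UTR peak, and 1 of 14 tested genes rose and 5 fell (3 and 3 at equal medians).

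The m6A machinery itself had 2 of 24 genes with such a peak (8.33%), and of 23 tested genes 1 rose and 6 fell, which turned to 2 and 1 at equal medians. ALKBH5, an eraser, had a control 5′ UTR peak of 8.55 that overlapped an LPS exon peak of 6.2, and 32.9 and 38.4 FPKM in control against 25.1 and 17.4 in LPS libraries. HNRNPA2B1, a nuclear protein described as a reader, had 3.35 and 2.90, and 270 and 240 FPKM against 151 and 169. The control and LPS libraries did not overlap in either gene. Both calls were lost at equal medians (limma adjusted p = 0.164 and 0.161). That of ALKBH5 was also lost without LPS replicate 2 (0.188) or either control replicate (0.0533 and 0.113), and that of HNRNPA2B1 without LPS replicate 1 (0.0809) or control replicate 1 (0.0558).

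Most genes with a 5′ UTR peak also had a peak elsewhere. In the control list 226 of the 566 genes (39.9%) and in the LPS list 181 of 396 (45.7%) had no peak elsewhere, while 263 (46.5%) and 153 (38.6%) also had a 3′ UTR peak. Within those genes the highest 5′ and 3′ UTR peaks had median fold enrichments of 5.71 and 7.1 in the control and 5.54 and 5.45 in the LPS list. The 5′ UTR peak was the higher one in 122 of 263 and in 73 of 153 genes. Their Spearman correlation was 0.114 and 0.105, a description over genes of 1 list. Where the control 5′ UTR peak was overlapped in the LPS list, the 3′ UTR peak was overlapped too in 79.2% of 173 genes, and where it was not, in 63.3% of 90.

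Several 5′ UTR peaks in 1 gene were rare. In the control list 541 genes had 1 such peak, 21 had 2 and 4 had 3 or more. TNRC18 had 5 in the control and 6 in the LPS list, from 9071 to 23372 bases from the start, with fold enrichments of 2.48 to 15.4 and 12.3 and 17.5 FPKM in control against 11.8 and 11.7 in LPS libraries. FTSJ3, a methyltransferase of ribosomal RNA processing, had 3 in each. GSE1 had 5 in the control and 1 in the LPS list, and fell from 6.61 and 7.62 FPKM to 0.643 and 1.01, by 2.16 ± 0.220 (limma adjusted p = 0.000341). COL27A1, a collagen, had 3 in the control list and none in the LPS list. Overlapping transcripts of 1 gene can list the same place more than once, as in SAAL1 and COL27A1, so these peaks are not independent.

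On chromosome Z, 22 of 216 control peaks (10.2%) and 13 of 151 LPS peaks (8.61%) lay in 5′ UTRs. Genes under the expression filter carried few, 17 in the control and 10 in the LPS list among 3943 genes. The bases under the peaks were not analysed here.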

How the data were processed

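The 8 libraries were placed in 4 groups of 2 by their labelled treatment and library kind. Per the submitters' processing notes, the tools were ChIPseeker, HOMER, HISAT2 and StringTie, with neither role nor version stated. The sources used here do not give the build, the caller of the peaks or whether replicates were pooled. For input RNA the authors deposited FPKM for 13427 genes in the 4 input libraries, and for each treatment 1 peak list of IP against input with exon blocks, strand, annotation, a fold enrichment (ratio) and a p-value per peak. The logarithms of that p-value are also deposited, as a score below 0. The name "treat" in a column or list was read as LPS. The lists had 7814 and 5939 entries, and 1 exact repeat was dropped from each.

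Peak lists were handled with pandas 2.3.3, numpy 2.4.6 and scipy 1.17.1 (Python 3.11.15). Each peak was paired one to one with the peak of the other list that shared most bases. Expression was tested with limma 3.58.1 (R 4.3.3) on log2(FPKM + 1) and a prior variance that followed the level, over genes averaging at least 1 FPKM, two-sided, with Benjamini-Hochberg adjustment over all of them. The scripts were tested on simulated data. Fold changes on this scale understate the change of low genes. Absolute depth is unknown, so no counting intervals are given.

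The 14 gene lists held 570 names, of which 456 matched. Members, lists and tests were chosen with earlier results of these data known. Named peaks were the 5 highest of each list, the 5 highest without overlap and the 5 largest ratios each way, all among genes with a symbol. Those without overlap were also limited to genes averaging at least 1 FPKM. Of the 623 genes with a 5′ UTR peak, 554 had a symbol. Named genes were the 8 largest rises and falls, list members with a peak, and genes with 3 or more. Genes outside this rule (CUX1, BRT-1, TOP1) were chosen after their values were seen. Alternatives were another pseudocount (0.1), no filter, equal library medians, a replicate block, each library left out, stricter peaks (p at most 1e-10, or fold enrichment of at least 4), and other overlap rules. A sequence motif search was not analysed here.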

Additional observations from a re-analysis of the deposited data

How the results depend on the processing

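The results rest on 2 input libraries a group and 1 peak list a treatment, so peak differences have no error. With libraries at equal medians the genes with a 5′ UTR peak that fell went from 239 to 131, all tested genes that fell from 2982 to 1594, and genes of control peaks without overlap that fell from 104 to 64. At a fold enrichment of at least 4, the 5′ UTR share was 8.33% of the control and 8.25% of the LPS list, and the medians 10.4 and 9.63. Counting each gene once gave 11.2% and 9.92%, and a partner annotated to a 5′ UTR lowered the overlapped control share to 59.3%. The other 93 alternatives of the main values stayed within wide limits. A count could differ by up to 1.5-fold, and a share or median had to lie in the 95% interval of its main value.

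Leaving out 1 library in turn left 62 to 71 genes with a 5′ UTR peak that rose and 182 to 210 that fell, and 838 to 923 and 2097 to 2494 over all genes. The labels do not say whether the replicate numbers pair samples. The correlation of same-numbered input deviations was 0.0292 over 9484 genes, and with only 2 pairs it cannot settle this. A replicate block gave 78 and 242 genes with a 5′ UTR peak, 1071 and 3150 over all genes, and 5 in place of 3 falls among genes of LPS peaks without overlap. Of 59 called genes that the text or lists name, 38 held their call in all 8 alternatives of the expression test, and 21 lost it in at least 1, of which 14 did so at equal medians and 18 with 1 library left out. None of these 59 reversed. The other named genes had no call, and some changed sign at equal medians, such as SMAD3 from −0.25 to 0.02, PPP1CC from −0.23 to 0.07 and EIF4E from −0.19 to 0.11 (log2 fold change).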
